A study of Homo sapiens with 6 samples.

Results

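The complement genes described here are 6 secreted components, C1R, C1S, C3, CFB, CFD and CFI, and 3 membrane regulators, CD46, CD55 and CD59. All probe sets that the platform annotation assigns to 1 of these 9 genes and to no other gene were taken, which gave 20 probe sets of 54675 on the array. Transcript levels were measured on 6 one-colour Affymetrix arrays of total RNA from human lung adenocarcinoma lines, 3 arrays of CL1-5, labelled highly invasive, and 3 of CL1-0, labelled poorly invasive. Both lines share the parental line CL1 and were grown in RPMI medium with serum and antibiotics, and the labels name no other treatment. Each line is a single cell line, and its 3 arrays are biological repeats of that line, so the tests compare these 2 cultures' repeats and not highly invasive with poorly invasive tumours in general.

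Complement is a cascade of plasma proteases that tags cells and microbes with fragments of C3 and can end in a membrane attack complex that pierces the target membrane. The classical pathway starts when C1q bound to antibody activates the proteases C1r and C1s, the alternative pathway amplifies C3 cleavage through factors B and D, and host cells carry membrane proteins that stop the cascade on their own surface. The liver makes most plasma complement, but epithelial and tumour cells also transcribe several components.

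The deposited values are signals on a linear scale, and folds were tested with limma on log2(signal + 6.85), a scale that understates the change of dim probe sets. The 40th percentile of an array, 19.5 to 20.3 signal units, stands in for background, and a probe set was tested if it exceeded that percentile on at least 3 of the 6 arrays. Of the 20 probe sets, 17 passed, so 8 of the 9 genes were tested and CFI was not. Each tested gene is represented by its brightest suitable probe set, and the remaining probe sets were tested in a fit over all probe sets. A call is a Benjamini-Hochberg adjusted p under 0.05 over all features of the fit. Levels of different probe sets depend on their probes and are not compared with each other.

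In CL1-5, 5 of the 8 tested genes were called higher (C3, CD59, C1R, C1S and CD46) and 2 lower (CD55 and CFD), while CFB was not called. Of all 14828 tested genes, 23.3% were called higher and 28.3% lower, so a call by itself is common in this pair of lines. The median log2 fold change was 0.59 over the 8 genes and -0.03 over all tested genes. Among the probe sets, 10 of the 17 tested were called higher and 4 lower, against 21.2% and 25.6% of the 28152 tested over the whole array. Of the 10, 2 passed the filter through CL1-5 alone (1 of C1S and 1 of CD59). The genes and lists were chosen with earlier results of these arrays known.

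**Figure D1:**
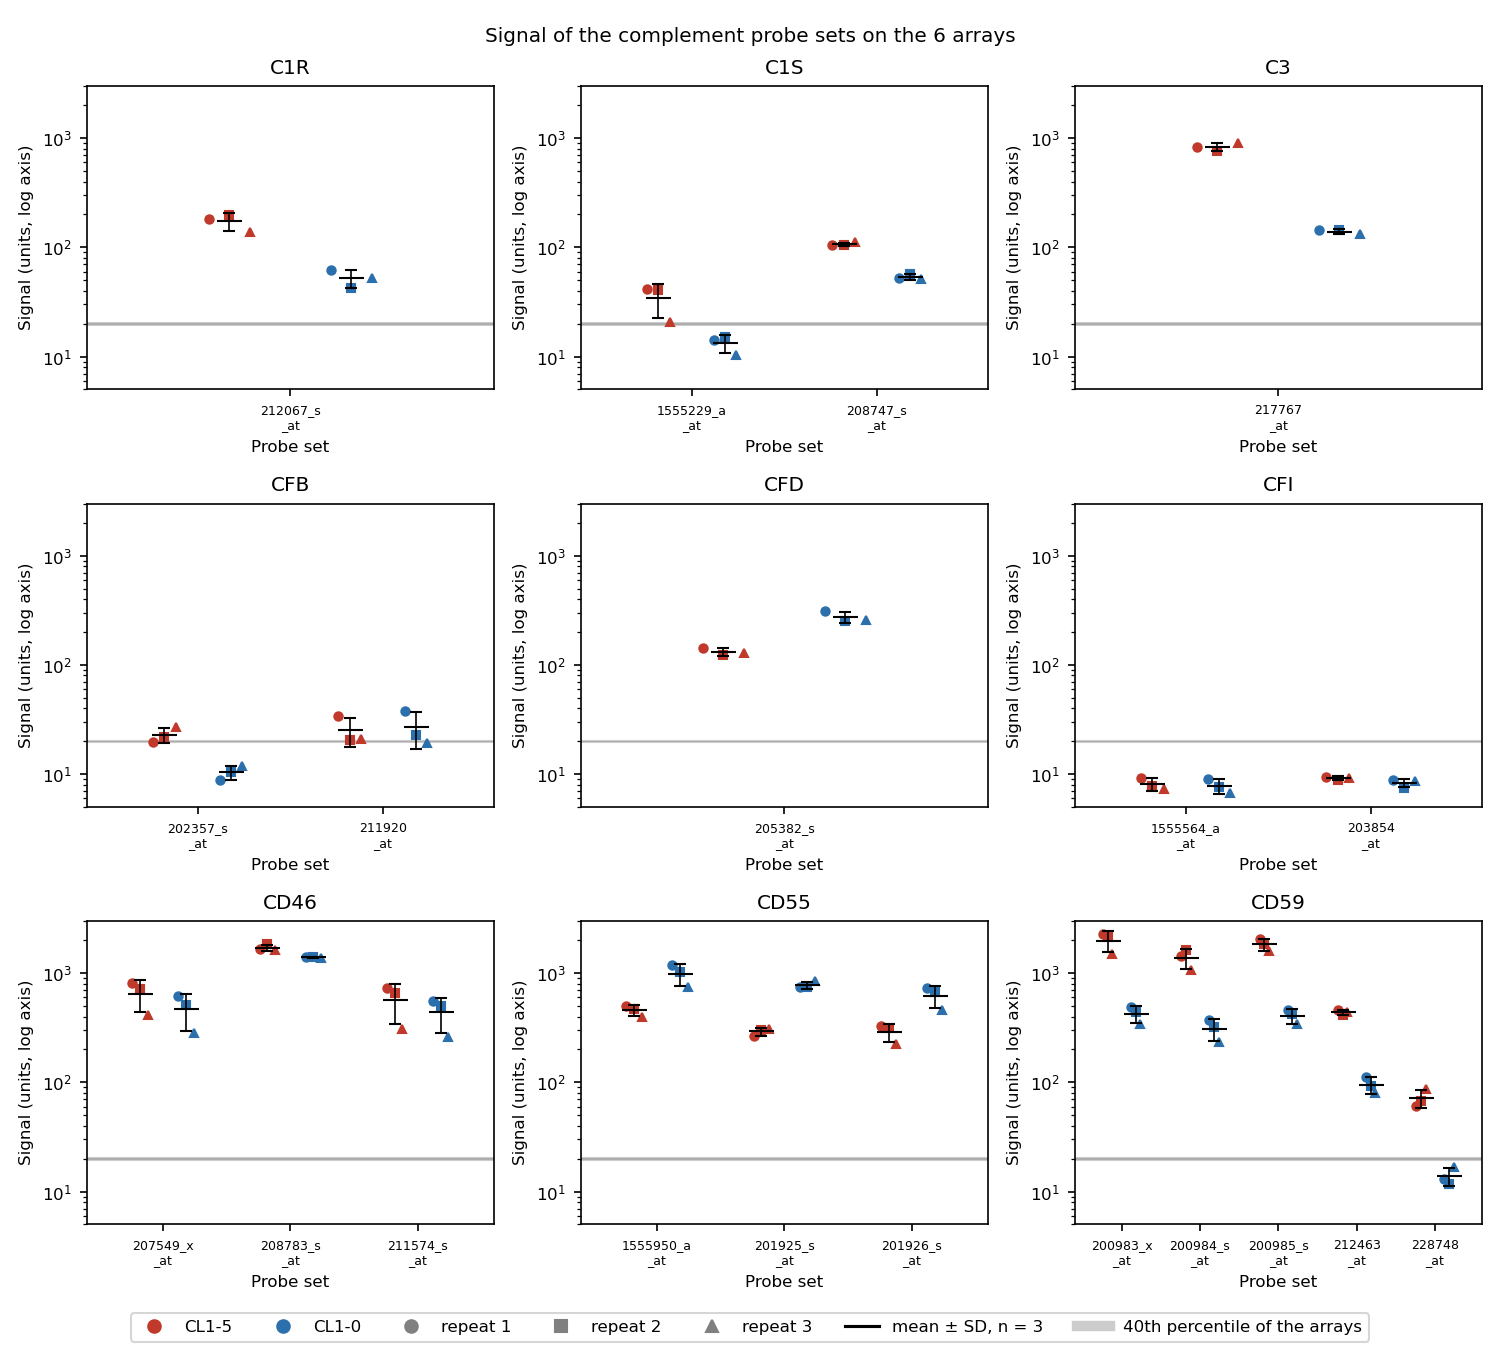
Signal of all 20 complement probe sets on each array (log axis, signal units), CL1-5 in red to the left of CL1-0 in blue, with marker shapes for the repeat number, black bars for mean ± SD (n = 3) and a grey band for the 40th percentile of the arrays. The CL1-5 points lie above the CL1-0 points in C1R, C1S, C3 and all CD59 panels, below them in CFD and all CD55 panels, and both CFI probe sets lie under the grey band.

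The proteases of the C1 complex were both higher in CL1-5. C1R, whose product activates C1s, had signals of 183, 199 and 138 in CL1-5, against 62.0, 42.4 and 52.5 in CL1-0 (probe set 212067_s_at). All CL1-5 arrays lay above all CL1-0 arrays, and the mean was 3.32-fold higher (173 ± 31.6 in CL1-5, 52.3 ± 9.80 in CL1-0, SD, n = 3 each). In RNA of whole cultures, fewer cells that express a gene and less RNA per cell cannot be told apart. The log2 fold change was 1.61 (SE 0.17, 95% interval 1.23 to 1.99, limma adjusted p = 4.83e-05).

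C1S encodes the protease that cleaves C4 and C2. Its brighter probe set, 208747_s_at, read 104, 104 and 111 in CL1-5, against 52.8, 57.5 and 51.4 in CL1-0, a 1.98-fold higher mean with little spread in either line. The log2 fold change was 0.90 (SE 0.09, limma adjusted p = 5.05e-05). The second C1S probe set, 1555229_a_at, read 41.5, 41.0 and 20.8 in CL1-5, against 14.3, 15.1 and 10.3 in CL1-0. There the 3 CL1-0 arrays were at or under the 40th percentile, so its fold is a bound, at least 1.64-fold higher (limma adjusted p = 0.00698 in the probe set fit). It passed the filter through CL1-5 alone and adds no support to the brighter probe set.

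C3, the central component from which the opsonin C3b is cut, had the largest log2 fold change of the 8 tested genes. Its single probe set, 217767_at, read 836, 764 and 893 in CL1-5, against 143, 144 and 132 in CL1-0. The lowest CL1-5 array was thus far above the highest CL1-0 array, and the mean was 5.95-fold higher (831 ± 64.8 in CL1-5, 140 ± 6.63 in CL1-0, SD, n = 3 each). The log2 fold change was 2.51 (SE 0.09, 95% interval 2.30 to 2.73, limma adjusted p = 6.72e-08). Of the 14828 tested genes, 387 had a higher log2 fold change than C3.

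In the alternative pathway, CFD was lower in CL1-5 and CFB was not called. CFD, the protease that cleaves factor B, read 143, 123 and 129 in CL1-5, against 308, 251 and 256 in CL1-0 (probe set 205382_s_at). All CL1-5 arrays lay below all CL1-0 arrays, and the mean was 2.07-fold higher in CL1-0 (132 ± 10.4 in CL1-5, 272 ± 31.5 in CL1-0, SD, n = 3 each). The log2 fold change was -1.01 (SE 0.11, 95% interval -1.27 to -0.75, limma adjusted p = 7.82e-05).

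CFB encodes factor B, which supplies the protease of the alternative pathway's C3-cleaving complex, and it has 2 probe sets. The one that passed the filter, 211920_at, read 33.8, 20.5 and 21.0 in CL1-5, against 38.1, 22.7 and 19.4 in CL1-0. These signals are close to the 40th percentile and overlap, with a log2 fold change of -0.06 (SE 0.22, 95% interval -0.56 to 0.44, limma adjusted p = 0.851). The other, 202357_s_at, read 19.9, 21.98 and 26.8 in CL1-5, against 8.85, 10.4 and 11.8 in CL1-0, and failed the filter because it exceeded the percentile on only 2 arrays, both of CL1-5. With its CL1-0 arrays all at or under the percentile, it was at least 1.14-fold higher in CL1-5. It was not tested in the main fit, and it was called higher where the filter was dropped or asked for 2 arrays.

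CFI encodes factor I, the plasma protease that inactivates C3b with the help of cofactors such as CD46. Its probe sets 203854_at and 1555564_a_at read 7.24 to 9.49 on the CL1-5 arrays and 6.65 to 9.04 on the CL1-0 arrays. All 12 readings lie under the 40th percentile, so CFI was not measured above the background stand-in in either line and no fold is given.

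Promoter windows from RefSeq (GRCh38.p14, 250 bases before to 50 after each gene start) were on hand for 7 of the 9 genes, 12 windows in all, with none for C1S and C3. They were searched on both strands for 4 motifs of factors known to act on complement genes. The motifs were TTCNNNGAA (the STAT site), TTTCNNTTT (the core of the interferon-stimulated response element), GGNNTTTCC (the last 9 bases of an NF-kappaB site) and TTGCNNAA (a C/EBP kind of site). The STAT motif was found in windows of 3 genes, CFB, CD59 and C1R, that is in 4 of 12 windows, of which 2 are overlapping windows of CD59 that share the match. It occurs in 7.66% of all 35116 windows in the table. TTTCNNTTT was found for CFB alone (10.5% of all windows), TTGCNNAA for C1R and CD59 (10.5%), and GGNNTTTCC for none of the 7 genes (6.26%). The windows of CFI, CFD, CD46 and CD55 held none of the 4 motifs. A match describes these letters and is not evidence of binding. The sequences below are the 250 bases before the start, 5′ to 3′ on the gene's strand, shown because these genes hold the matches, which stand in capitals. CFB lies on the plus strand at chr6:31945845-31946094, and the upstream start of C1R on the minus strand at chr12:7092446-7092695.
CFB: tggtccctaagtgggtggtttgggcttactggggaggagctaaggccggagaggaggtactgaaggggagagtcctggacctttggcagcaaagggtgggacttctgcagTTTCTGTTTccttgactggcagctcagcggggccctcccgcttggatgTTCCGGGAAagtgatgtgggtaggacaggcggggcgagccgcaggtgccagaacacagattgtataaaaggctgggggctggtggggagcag
C1R: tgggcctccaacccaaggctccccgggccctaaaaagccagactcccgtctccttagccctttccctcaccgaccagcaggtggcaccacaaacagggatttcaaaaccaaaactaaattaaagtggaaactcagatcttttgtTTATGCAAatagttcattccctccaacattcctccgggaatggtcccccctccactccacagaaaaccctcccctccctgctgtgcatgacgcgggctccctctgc
In CFB the capitals mark TTTCTGTTT and TTCCGGGAA, whose first bases lie 140 and 92 bases before the start. In C1R they mark TTATGCAA, a TTGCNNAA match on the opposite strand, 106 bases before the start. The second, downstream C1R start has a STAT match 86 bases before it, at chr12:7091961-7091989 with its flanks.
C1R, second start: gccagtcctaTTCCTGGAAggggagggga

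The 3 membrane regulators, which protect host cells at successive steps, moved in different directions. CD59, the anchored inhibitor that blocks assembly of the membrane attack complex, was higher in CL1-5 on each of its 5 probe sets. Of the 5, 228748_at passed the filter through CL1-5 alone and adds no support. CD55, decay-accelerating factor, which takes apart the C3-cleaving complexes, was lower in CL1-5 on each of its 3 probe sets. CD46, membrane cofactor protein, which serves factor I as cofactor, was higher by a small margin.

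CD59 read 2062, 1847 and 1592 in CL1-5, against 459, 420 and 340 in CL1-0, on the probe set that represents it, 200985_s_at. The lines did not overlap, and the mean was 4.51-fold higher (1833 ± 235 in CL1-5, 406 ± 61.0 in CL1-0, SD, n = 3 each). The log2 fold change was 2.16 (SE 0.13, 95% interval 1.85 to 2.46, limma adjusted p = 1.75e-06), and 480 of the 14828 tested genes had a higher one.

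The other CD59 probe sets covered a wide range of brightness. The brightest, 200983_x_at, averaged 1985 ± 427 in CL1-5 and 425 ± 73.0 in CL1-0 (SD, n = 3 each), and carries the suffix x that marks probes shared with other sequences. The dimmest, 228748_at, read 60.7, 67.3 and 86.1 in CL1-5, against 13.0, 11.8 and 16.9 in CL1-0. Its CL1-0 arrays lie under the 40th percentile, so it passed the filter through CL1-5 alone and its fold is a bound of at least 3.54-fold higher. Its fitted log2 value followed the added constant (2.28 with 1, 1.91 with 6.85 and 1.17 with 32). In the probe set fit, log2 fold changes of the 4 CD59 probe sets above the percentile in both lines were between 2.13 and 2.20, with limma adjusted p between 7.26e-06 and 8.14e-05.

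The upstream CD59 start, of 4 in the table, lies on the minus strand of chromosome 11, and the 250 bases before it are at chr11:33736480-33736729. The capitals mark the STAT match, TTCTCAGAA, whose first base lies 128 bases before the start.
CD59: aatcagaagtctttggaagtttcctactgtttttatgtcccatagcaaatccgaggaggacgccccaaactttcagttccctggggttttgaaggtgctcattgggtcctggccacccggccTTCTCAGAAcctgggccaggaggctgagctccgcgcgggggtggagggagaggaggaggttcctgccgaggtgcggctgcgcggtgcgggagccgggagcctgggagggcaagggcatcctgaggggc

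CD55 read 505, 468 and 399 in CL1-5, against 1181, 1015 and 746 in CL1-0, on the probe set that represents it, 1555950_a_at. Repeat 3 was the lowest array in both lines, and the lines still did not overlap. The mean was 2.15-fold higher in CL1-0 (457 ± 53.9 in CL1-5, 981 ± 220 in CL1-0, SD, n = 3 each), with a log2 fold change of -1.07 (SE 0.17, 95% interval -1.45 to -0.69, limma adjusted p = 5.79e-04). The tightest CD55 probe set, 201925_s_at, read 264, 304 and 309 in CL1-5, against 743, 740 and 842 in CL1-0. Its log2 fold change was -1.39 (SE 0.10, limma adjusted p = 1.84e-05 in the probe set fit). The third, 201926_s_at, averaged 288 ± 53.3 in CL1-5 and 622 ± 143 in CL1-0 (SD, n = 3 each), a log2 fold change of -1.09 (SE 0.20, limma adjusted p = 0.00289). All 3 CD55 probe sets were thus called lower in CL1-5, opposite in sign to CD59.

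**Figure D2:**
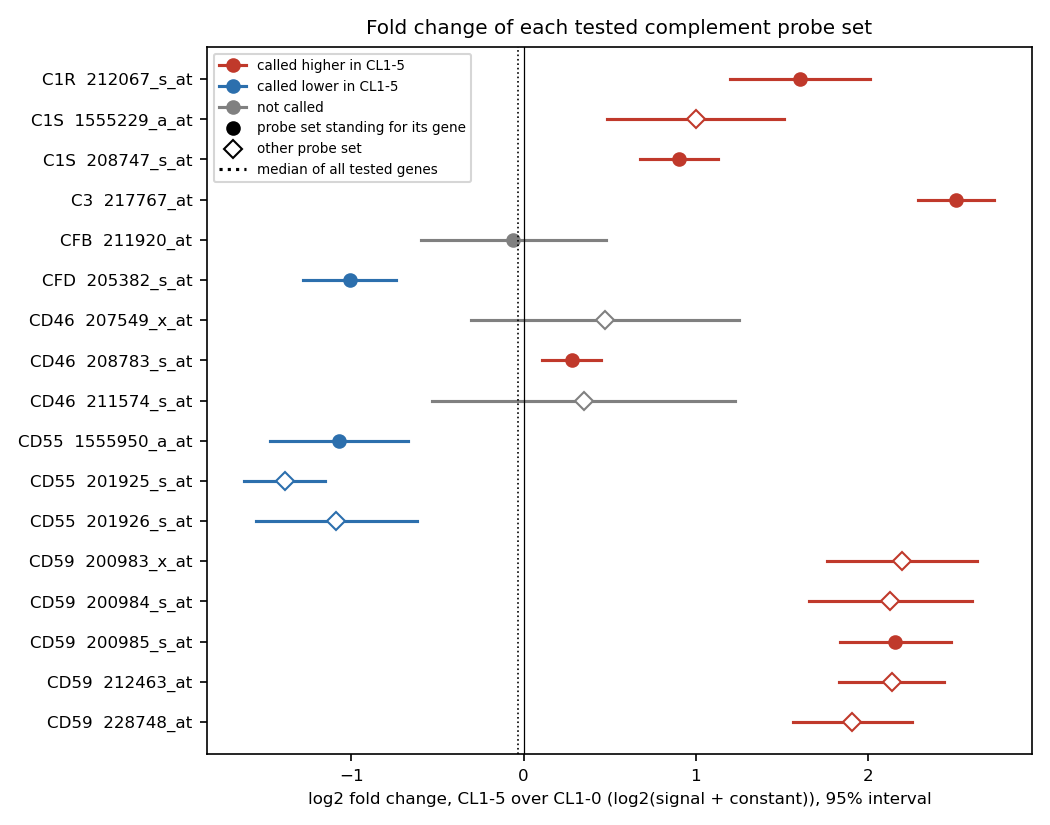
Log2 fold change of CL1-5 over CL1-0 with its 95% interval for the 17 tested probe sets, from the fit over all probe sets, filled circles marking the probe set that stands for its gene and open diamonds the others. The 4 CD59 probe sets measured in both lines lie between 2.13 and 2.20 and the 3 CD55 values between -1.39 and -1.07, while 2 of the 3 CD46 intervals span 0. The values drawn for 228748_at (CD59) and 1555229_a_at (C1S) depend on the added constant, since their CL1-0 arrays are under the 40th percentile.

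CD46 read 1660, 1831 and 1620 in CL1-5, against 1410, 1404 and 1383 in CL1-0, on the probe set that represents it, 208783_s_at. The lines did not overlap, but the mean was higher by only 1.22-fold (1704 ± 112 in CL1-5, 1399 ± 14.0 in CL1-0, SD, n = 3 each). The log2 fold change was 0.28 (SE 0.07, 95% interval 0.11 to 0.45, limma adjusted p = 0.0113). Without CL1-5 repeat 2 it was 0.23 and the call was lost (limma adjusted p = 0.0615).

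The other 2 CD46 probe sets were not called, and their arrays spread by repeat number. Probe set 211574_s_at read 736, 663 and 309 in CL1-5, against 551, 502 and 262 in CL1-0. Probe set 207549_x_at read 812, 718 and 414 in CL1-5, against 621, 511 and 281 in CL1-0. On both, repeat 3 was the lowest array of its line, so the lines overlapped although CL1-5 exceeded CL1-0 within each of the 3 repeat numbers. Their log2 fold changes were 0.35 (limma adjusted p = 0.501) and 0.47 (limma adjusted p = 0.296). With the repeat number as a block, both were called higher in CL1-5 at the same fold changes, with limma adjusted p = 5.60e-04 for 211574_s_at and 3.16e-05 for 207549_x_at. That raised the called CD46 probe sets to 3 of 3 and the called higher probe sets of all 9 genes to 12. The block also raised the calls over all tested genes, from 3448 to 4145 higher and from 4196 to 5149 lower. The share of all probe sets called with the block was not counted.

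The 3′ to 5′ signal ratio of the ACTB controls, which rises where RNA is degraded, was highest on repeat 3 of each line. It was 0.31, 0.40 and 0.91 (log2) in CL1-5 repeats 1 to 3, against 0.53, 0.44 and 1.17 in CL1-0. The ratio of the GAPDH controls was 0.04, 0.02 and 0.20 (log2) in CL1-5 repeats 1 to 3, against 0.08, 0.14 and 0.25 in CL1-0. For both controls the lines overlapped, and CL1-5 was below CL1-0 within each of the 3 repeat numbers. The part of RNA quality in the CD46 signals and in the other differences between the lines was not tested. Within repeats 1 and 2 alone, all 3 CD46 probe sets were called higher, with log2 fold changes of 0.31 to 0.43.

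**Figure D3:**
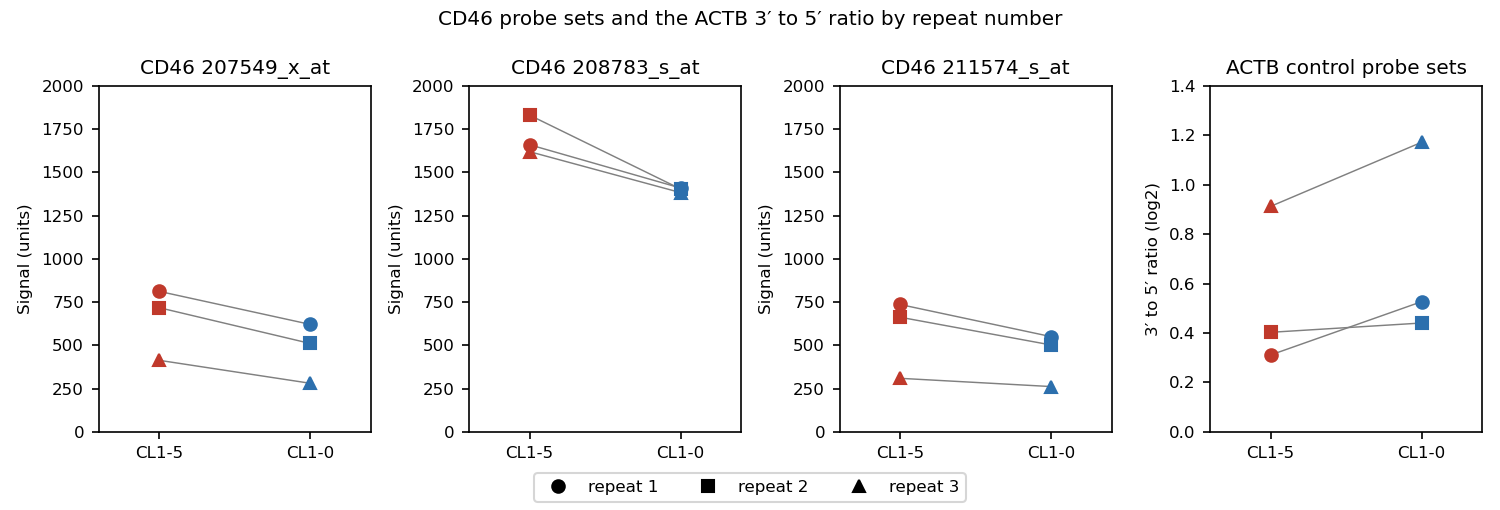
Signal of the 3 CD46 probe sets (signal units, axis from 0) and the log2 3′ to 5′ ratio of the ACTB control probe sets in CL1-5 and CL1-0, each line joining arrays of the same repeat number. In 207549_x_at and 211574_s_at the repeat 3 arrays (triangles) are the lowest of their line, and in the ACTB panel they are the highest.

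Other complement genes were taken from a list of 52, of which 45 had a probe set naming that gene alone and 18 were tested. Of these 18, 3 were called higher and 7 lower, and 8 were not called. Over all 14828 tested genes, 23.3% were called higher and 28.3% lower. Their median log2 fold change was -0.07, against -0.03 over all tested genes. PTX3 and COLEC12, both called, each passed the filter through 1 line alone. The subunits of the membrane attack complex downstream of C5 were not tested. C6, C7, C8A, C8B, C8G and C9 had highest signals of 7.19 to 18.6 on any array, under the 40th percentile.

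Upstream, at the C1 complex, the inhibitor and the proteases had opposite signs. SERPING1, the C1 inhibitor that inactivates C1r and C1s, read 33.8, 32.5 and 44.3 in CL1-5, against 112, 125 and 116 in CL1-0. The lines lay apart, and the log2 fold change was -1.52 (SE 0.12, limma adjusted p = 9.95e-06). C1RL, a protease related to C1r, averaged 80.6 ± 26.0 in CL1-5 and 224 ± 42.5 in CL1-0 (SD, n = 3 each), with a log2 fold change of -1.43 (SE 0.22, limma adjusted p = 5.78e-04). A second C1RL probe set, 233645_s_at, gave -0.26 and was not called. C1QBP, a mitochondrial protein that also binds C1q, fell by 0.46 on the log2 scale (SE 0.08, limma adjusted p = 0.00168). C1QC, a chain of C1q itself, was not called (log2 fold change 0.09).

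PTX3 and C3AR1, a recognition protein and a receptor, were higher in CL1-5. C3AR1, the receptor for the C3 fragment C3a, read 188, 182 and 159 in CL1-5, against 19.9, 24.1 and 39.6 in CL1-0. Its log2 fold change was 2.44 (SE 0.19, limma adjusted p = 8.07e-06). The signal of CL1-0 repeat 1 was just above the 40th percentile, and the fold followed the added constant (2.67 with 1 and 1.81 with 32). PTX3, a secreted pentraxin that binds C1q, read 74.6, 89.0 and 102 in CL1-5, against 5.20, 6.76 and 5.09 in CL1-0. Its CL1-0 arrays lie under the 40th percentile, so PTX3 was at least 4.40-fold higher in CL1-5 (limma adjusted p = 1.45e-07), and it was tested through its CL1-5 arrays alone. ITGB2, the beta chain of the leukocyte complement receptors, was dim and rose by 0.35 on the log2 scale (SE 0.12, limma adjusted p = 0.0392). A brighter ITGB2 probe set, 236988_x_at, gave 0.17 and was not called, and over all probe sets the first one was not called either (limma adjusted p = 0.0507). The ITGB2 call was also lost without CL1-0 repeat 2 or 3 and without CL1-5 repeat 1 or 2 (limma adjusted p between 0.0638 and 0.146). Without CL1-5 repeat 1 or 2, PTX3 also failed the filter on 3 arrays, which left 1 gene of the list called higher.

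The other genes called lower were CSMD1, COLEC12, C5 and CLU. CSMD1, a membrane protein with complement control modules, averaged 67.0 ± 3.27 in CL1-5 and 283 ± 50.03 in CL1-0 (SD, n = 3 each), a log2 fold change of -1.96 (SE 0.14, limma adjusted p = 3.60e-06). The 3 other tested CSMD1 probe sets were also called lower, with smaller log2 fold changes of -1.09, -0.67 and -0.52. COLEC12, a scavenger receptor with a lectin domain, was at least 2.47-fold lower in CL1-5, with its CL1-5 arrays under the 40th percentile (limma adjusted p = 1.92e-05). It was tested through its CL1-0 arrays alone and failed the filter on 3 arrays when any 1 of them was left out. C5, the component whose cleavage begins the lytic steps, fell by 0.73 (log2, SE 0.10, limma adjusted p = 2.79e-04). CLU, clusterin, a soluble inhibitor of the lytic complex, had a log2 fold change of -0.29 and a limma adjusted p of 0.0472, which was past 0.05 without 5 of the 6 arrays taken singly. Neither of its 2 tested probe sets was called over all probe sets. C2, the partner of C4 in the classical pathway, was not called (log2 fold change 0.10, limma adjusted p = 0.461).

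**Figure D4:**
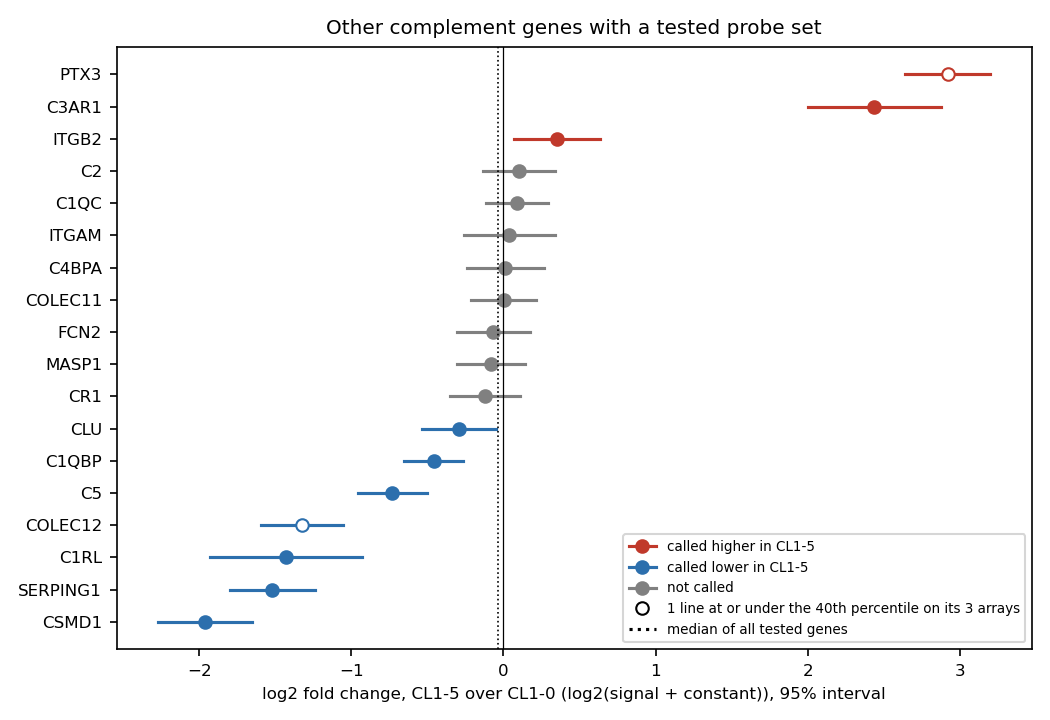
Log2 fold change of CL1-5 over CL1-0 with its 95% interval for the 18 other complement genes tested, 1 probe set each, ordered by fold change, open circles marking genes with 1 line at or under the 40th percentile on its 3 arrays. C3AR1 stands near the top with 2.44, and CSMD1 and SERPING1 at the bottom with -1.96 and -1.52. The value drawn for PTX3 depends on the added constant, and with a constant of 32 it was 1.67, under the 1.81 of C3AR1.

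Several of the 9 genes lie in complement clusters of the genome, and genes were ordered by their start in RefSeq (GRCh38.p14). On chromosome 12, C1S, C1R and C1RL follow each other among the tested genes, with C1S and C1R higher and C1RL lower in CL1-5. LPCAT3, the tested gene on the other side of C1S, was not called (log2 fold change -0.10). On chromosome 1, where CD55 and CD46 lie in the cluster of complement regulators, the nearest tested genes C4BPA, CR1 and CD34 were not called. Their log2 fold changes were 0.01, -0.12 and 0.00. Their signals were low, with means of 42.6, 24.4 and 35.8 in CL1-5 and 42.1, 27.3 and 34.9 in CL1-0. On chromosome 11, CD59 lies between KIAA1549L, which was tested through its CL1-5 arrays alone and was at least 4.04-fold higher there (limma adjusted p = 4.81e-06), and FBXO3, which fell by 0.41 on the log2 scale (limma adjusted p = 0.00591). The neighbours of C3 (TNFSF14 and TRIP10), of CFB (ZBTB12 and SKIC2) and of CFD (PLPPR3 and MED16) were not called. Of these, TNFSF14, ZBTB12 and PLPPR3 also had low signals, with line means between 28.5 and 39.9. Next to CFI, PLA2G12A fell by 0.63 on the log2 scale (limma adjusted p = 0.00564) and GAR1 was not called.

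The tested genes most like each called complement gene were found by the root mean square difference of centred log2 values over the 6 arrays, a measure that the difference between the lines dominates. For C3 they were OASL, HIVEP2 and CCRL2, at distances of 0.07 to 0.08 log2 units, with log2 fold changes of 2.43, 2.40 and 2.58. For CD59 they were IFI35, SERPINB8 and P4HA1, at distances of 0.09 to 0.10. For C1R they were APOL3, MBNL2 and TMEM44, at 0.13 to 0.14. For CD55 they were MRPS7, GABARAPL1 and NADK2, at 0.04 to 0.05, and for CFD they were NOLC1, LSM1 and SPATS2, at 0.04 to 0.05. For C1S they were IER2, ALDOA and CYB561D1, at 0.03 to 0.05, and for CD46 they were APOBEC3D, ZFYVE27 and PRKAR1B, at 0.02 to 0.03.

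Over the whole series, the median signal of an array was 30.2 to 30.9 units. Arrays of the same line correlated across genes at 0.989 to 0.996 and arrays of different lines at 0.856 to 0.866, and genes are not independent replicates. The number of arrays limits the precision, and the median SE of a log2 fold change was 0.11. Of the 7 epithelial markers, 5 exceeded the 40th percentile on all CL1-5 arrays and 6 on all CL1-0 arrays, with summed signals of 4562 to 5381 in CL1-5 against 273 to 299 in CL1-0. KRT18 averaged 4222 ± 417 in CL1-5 and 46.5 ± 7.85 in CL1-0 (SD, n = 3 each), on a probe set with suffix x. EPCAM went the other way, at least 1.46-fold lower in CL1-5, and CDH1 was below CL1-0 on all CL1-5 arrays but was not called (35.2 ± 1.63 in CL1-5, 41.9 ± 4.08 in CL1-0, SD, n = 3 each). KRT19 was under the percentile on all 6 arrays, and the lung lineage factor NKX2-1 was near it in both lines (25.0 ± 0.50 in CL1-5, 26.9 ± 3.30 in CL1-0, SD, n = 3 each). The leukocyte markers PTPRC, CD14 and LYZ were at or under it on all 6 arrays, while CD3E and CSF1R exceeded it on all 6. Under it on all 6 arrays were also the hepatocyte markers ALB, APOA1, APOB and FGB and the endothelial markers CDH5 and KDR. Summed leukocyte markers were 86.7 to 95.2 in CL1-5 and 87.8 to 94.2 in CL1-0, and summed hepatocyte markers 210 to 235 in CL1-5 and 102 to 114 in CL1-0. The hepatocyte sum was carried by SERPINA1, at 141 ± 14.3 in CL1-5 and 24.0 ± 3.88 in CL1-0 (SD, n = 3 each). Summed endothelial markers were 157 to 171 in CL1-5 and 79.4 to 95.8 in CL1-0, carried by PECAM1 (115 ± 4.24 in CL1-5, 49.8 ± 6.13 in CL1-0, SD, n = 3 each, limma adjusted p = 3.49e-05). Summed fibroblast markers were 106 to 109 in CL1-5 and 114 to 127 in CL1-0, and summed lung lineage markers 192 to 218 in CL1-5 and 213 to 236 in CL1-0. The part of these differences in the complement signals was not tested.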

How the data were processed

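The deposited table holds probe set intensities on a linear scale. The submitters' processing notes name MAS5 without a version. No source used here states a scaling step, and the median intensity is alike on all deposited arrays. The platform annotation named the probe sets (41091 with 1 gene symbol, 1801 with several), and gene identifiers were updated to RefSeq GRCh38.p14. Lines and repeat numbers came from the sample titles.

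Tests used log2(signal + 6.85), where the constant is the 10th percentile of all values, and the filter described in the report. Of several probe sets that passed, the one with the highest mean log2 value stood for its gene, and one with suffix x only where no other passed. CL1-5 was set against CL1-0 with limma 3.58.1 under R 4.3.3 (lmFit and eBayes, variance trend), adjusted by Benjamini-Hochberg over 14828 genes or over 28152 probe sets. A fold is a bound where 1 line had no array above the 40th percentile. It is the bright line's mean log2 signal against, per array, the higher of the percentile and the dim signal. The fit was also run on simulated data with independent noise for each array. It called 44% of genes given a log2 change of 0.5, 86% at 1 and 96% at 2, with 9 false calls. Effects shared by arrays of the same repeat number were not simulated.

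Repeat numbers pair the arrays by the data, since deviations from the line means correlated at 0.48, 0.28 and 0.65 between same-numbered arrays, and the titles do not say what a number shares. The fit with the number as a block is an alternative. Other alternatives were the constant, the filter, quantile normalization, no variance trend, array weights, other choices of probe set, repeats 1 and 2 alone, and leaving out each array. The rule for named genes took the 9 members with every probe set, up to 6 called genes of the complement list in each direction, the nearest tested neighbours, the 3 nearest profiles of each called member and the cell type markers. CLU, C2, C1QC and the lytic subunits were named after their values were seen. The members and lists were chosen with earlier results of these data known. P-values rest on the spread among the 3 repeats within each line, pooled over both lines. The eBayes step draws that spread towards a trend over all features of the fit. Each line is a single cell line.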

Additional observations from a re-analysis of the deposited data

How the results depend on the processing

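C1R, C1S, C3, CFD, CD55 and CD59 kept their direction and their call under all 23 alternatives tried, with log2 fold changes of 1.28 to 1.95 for C1R, 0.69 to 0.97 for C1S, 2.33 to 2.57 for C3, -1.07 to -0.89 for CFD, -1.25 to -0.93 for CD55 and 2.04 to 2.26 for CD59. The probe set that represents CFB was called under none of them (-0.25 to 0.17, adjusted p between 0.386 and 0.938). The other CFB probe set, 202357_s_at, was called higher in CL1-5 where the filter was loosened, with a log2 fold change of 0.79. Its limma adjusted p was 5.42e-04 with no filter and 7.98e-04 with the filter on 2 arrays. Its CL1-0 arrays lie at or under the 40th percentile, so its fold is a bound. CD46 ranged from 0.23 to 0.36, and from 0.23 to 0.32 where 1 array was left out. It lost its call without CL1-5 repeat 2, with a limma adjusted p of 0.0615, and of 0.0628 where the filter asked for 2 arrays. Leaving out 1 array at a time, 4 to 5 members were called higher and 2 lower, and 1 to 3 other complement genes were called higher. Over all probe sets in place of 1 a gene, 5976 features were called higher and 7214 lower, because more features were tested. With the repeat number as a block, 4145 genes were called higher and 5149 lower, against 3448 and 4196 in the unpaired fit. The block fit called 12 member probe sets higher against 10 in the unpaired fit. Beside the 2 CD46 probe sets named above, no call of a member changed with the block. CFB signals lie near the 40th percentile and CFI signals under it, which limits what these arrays show of both genes.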
